A study of Mus musculus with 14 samples.

Results

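The enzymes of fatty acid beta-oxidation in mitochondria and peroxisomes were followed in the livers of mice fed krill powder. The set held 30 genes, taken by name from a written list, out of 18193 genes that the platform table pairs with a probe set of a single symbol. Earlier results of these data were known when the list was drawn up. Of the members, 14 are mitochondrial, 14 are peroxisomal, and 2, Eci2 and Ech1, are known from both organelles and were counted in neither group. The 30 genes have 47 probe sets, and the probe set with the highest mean over the arrays stood for each gene.

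The animals were male CBA/J mice, an inbred strain, housed singly and given 84 kcal per week of a diet on the AIN93M formula. From 2 months of age 7 mice ate the control diet and 7 a test diet with a krill powder extract, matched for total protein and total lipid but not for the kinds of amino acids and fatty acids. The diets were kept up for 3 months, until the mice were 5 months old, and the liver RNA of each mouse went on an Affymetrix array of its own. The comparison asked which liver transcripts differed between the diets.

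Beta-oxidation shortens an activated fatty acid by repeated rounds of dehydrogenation, hydration, a second dehydrogenation and thiolytic cleavage. In mitochondria the first step is done by acyl-CoA dehydrogenases of different chain length, whose electrons pass through the electron transfer flavoprotein to the respiratory chain, and the later steps on long chains by the trifunctional protein. Peroxisomes take very long, branched and dicarboxylic chains and bile acid precursors, and their first enzyme is an oxidase that makes hydrogen peroxide. Polyunsaturated chains, which krill oil supplies, need extra isomerases and reductases in both organelles. Many of these genes are known targets of PPAR alpha, a fatty acid sensor that binds a direct repeat of AGGTCA.

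Hadha and Hadhb, which encode the alpha and beta subunits of the trifunctional protein, lie head to head on chromosome 5. In RefSeq (GRCm38.p6) their start sites, at 30154980 and 30155253, are 273 bases apart and point away from each other. The window from 250 bases before to 50 bases after the Hadhb start (chr5:30155003-30155302, plus strand) therefore shares 228 of its 300 bases with the window of Hadha. It is shown because the transcripts on both sides were called lower with all arrays. In a comparison without 4 krill arrays, described further on, Hadhb was still called lower and Hadha was not. Capitals mark GGGCGG or its reverse complement, which occurs 4 times.
Hadhb: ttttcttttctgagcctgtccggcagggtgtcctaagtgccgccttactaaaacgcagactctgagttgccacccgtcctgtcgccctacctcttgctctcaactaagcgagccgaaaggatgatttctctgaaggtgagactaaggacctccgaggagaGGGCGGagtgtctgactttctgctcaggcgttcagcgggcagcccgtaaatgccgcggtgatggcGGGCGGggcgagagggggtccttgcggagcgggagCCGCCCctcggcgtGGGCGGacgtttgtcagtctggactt

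The windows of Acaa1a (chr9:119341044-119341343, plus strand) and Acaa1b (chr9:119157044-119157343, minus strand), which encode the peroxisomal thiolases A and B, are shown because both thiolases were called lower with all arrays and parted in the comparison described further on. Aligned end to end, they were identical in 167 of 338 columns (49.4%). Capitals mark CCAAT or ATTGG on either strand, and each window holds 4 occurrences, a pair of which overlap in Acaa1b.
Acaa1a: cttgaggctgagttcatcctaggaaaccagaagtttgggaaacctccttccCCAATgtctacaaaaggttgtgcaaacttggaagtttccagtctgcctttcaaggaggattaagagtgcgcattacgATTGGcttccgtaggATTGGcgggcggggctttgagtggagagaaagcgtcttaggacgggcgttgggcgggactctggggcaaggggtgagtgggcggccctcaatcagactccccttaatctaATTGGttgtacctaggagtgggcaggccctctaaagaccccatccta
Acaa1b: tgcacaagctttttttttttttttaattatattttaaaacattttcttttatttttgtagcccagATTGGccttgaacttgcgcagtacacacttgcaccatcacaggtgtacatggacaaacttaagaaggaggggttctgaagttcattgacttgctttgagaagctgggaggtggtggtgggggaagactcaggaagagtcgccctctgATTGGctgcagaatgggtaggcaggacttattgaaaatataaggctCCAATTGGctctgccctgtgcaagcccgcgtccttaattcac

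Windows of this kind were used for 26 of the 30 members, and 4 motifs were searched on both strands. The direct repeat, AGGTCA repeated in the same direction after any 1 base, was in 0 of the 26 members and in 0.0396% of all 32851 windows, which says only that these letters are not in these windows. The single element AGGTCA was in 6 of 26 members (23.1%), against 16.3% of all windows. GGGCGG was in 17 members (65.4%), against 35.7% of all windows and 46.2% of the 21262 windows of protein-coding genes, and CCAAT was in 13 of 26 (against 37.4% and 38.2%). The 6 stretches show AGGTCA or its reverse complement TGACCT in capitals. They are given because, with all arrays as deposited, the transcripts behind them did not move one way. Acadm, Acadvl and Phyh fell there, Echs1 rose, and Acot3 and Acot4 did not pass the test. Without 4 krill arrays, a comparison described further on, Acadm and Acadvl were no longer called. With the spike-in scaling described further on, all 6 transcripts stood below 0. The stretches lie at chr3:153944864-153944893 (minus strand), chr11:70015498-70015527 (minus), chr7:140116487-140116516 (minus), chr2:4919016-4919045 (plus), chr12:84052150-84052179 (plus) and chr12:84038354-84038383 (plus), in the order printed.
Acadm: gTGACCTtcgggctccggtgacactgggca
Acadvl: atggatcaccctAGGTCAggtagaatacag
Echs1: accagcccgctcAGGTCAcgggtccacccc
Phyh: tgccgtaagttaagtgTGACCTgggcgcag
Acot3: gttattagctctTGACCTtgtctgtctgct
Acot4: agccccgaagcaTGACCTttggccggtctg

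The arrays of the diets were not alike in quality, and this bears on every value that follows. The hybridisation spike-ins, bacterial RNAs added in a fixed amount, stood at 12.59 to 13.22 on the log2 scale on control arrays. They stood at 12.92 to 13.17 in krill replicates 1, 3 and 6 and at 14.12 to 14.34 in krill replicates 2, 4, 5 and 7. The combined ratio of 3' to 5' signal of actin and pyruvate carboxylase, which rises as RNA is shortened, was higher on all 7 krill arrays than on any control array (two-sided exact permutation p = 0.000583, which is as small as 3432 assignments allow, and 0.00117 after adjustment over 6 measures). Each member is therefore given with all 14 arrays and in a 10-array comparison of krill replicates 1, 3 and 6 with the 7 controls. These krill arrays are near the controls in spike-in level but not in the combined 3' to 5' ratio. On the log2 scale it was 2.44 to 3.00 there and 1.56 to 2.28 on control arrays. The part of array quality in the results was not tested beyond these values and the alternatives below. The 6 hepatocyte markers summed to a signal of 261695 to 395912 on control and 341767 to 673421 on krill arrays. All 6 passed the signal filter, as the tissue label has it, with 4 called higher and 1 lower in krill livers as deposited and 0 of either in the 10-array comparison (limma). The 5 Kupffer cell markers, of liver macrophages, summed to 4712 to 6705 and 6674 to 13364. They did not all move one way. Of the 4 that passed the signal filter, 2 were called higher and 1 lower as deposited, and 2 higher and 0 lower in the 10-array comparison (limma). No detection calls were used, so no marker could be set at 0. In whole liver, fewer cells of a type and less RNA per cell cannot be told apart.

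With all arrays, the mitochondrial enzymes mostly fell, with the acyl-CoA dehydrogenases, the trifunctional protein, Eci1 and Etfdh lower, while Echs1, Hadh and Decr1 rose. Of the 14 mitochondrial members 8 were called lower, 3 higher and 3 did not pass, so 78.6% were called, against 47.7% of all 11308 genes tested (limma, Benjamini-Hochberg adjusted p under 0.05). Among all genes 24.8% were called lower and 22.9% higher. Of the 14 peroxisomal members 5 were called lower, 0 higher and 9 did not pass, a share of 35.7%. At an unadjusted limma p under 0.05, 0 peroxisomal members were higher. Eci2 was called lower and Ech1 higher. The median log2 change, krill minus control on log2(signal + 16), was -0.58 over the mitochondrial and -0.34 over the peroxisomal members, and 0.04 over all genes. All 30 members passed the filter on low signal.

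Without krill replicates 2, 4, 5 and 7 most of the falls were no longer called, and most of the rises were. In that 10-array comparison 2 mitochondrial members were lower, 4 higher and 8 did not pass, so 42.9% were called, against 32.3% of all genes (19.6% lower and 12.7% higher). Among the peroxisomal members 2 were lower, 2 higher and 10 did not pass (28.6%). The medians were -0.02 and 0.27, against -0.04 for all genes. Acadl, Hadhb, Eci2, Acaa1a and Phyh were lower and Echs1, Decr1 and Ech1 higher in both comparisons. The rises depend on the scaling. With arrays scaled on the spike-ins the median of all genes was -0.71 and all 30 members stood below 0. There 9 mitochondrial and 6 peroxisomal members were lower and 0 higher, where limma called 51.2% of all genes, 48.2% lower and 2.95% higher. With spike-in scaling and krill replicates 2, 4, 5 and 7 left out together, chosen after seeing the data, Decr1 (0.65, limma adjusted p = 0.0228), Etfb (0.49, limma adjusted p = 0.048) and Ech1 (0.52, limma adjusted p = 0.0263) were higher. There Acadl, Hadhb, Acaa1a, Phyh and Eci2 were lower, and limma called 24.8% of all genes, 19.2% lower and 5.67% higher, with a median of -0.17. With arrays centred on their medians the median of all genes was -0.36, and 8 mitochondrial and 5 peroxisomal members were lower and 0 higher, against 32.9% and 8.87% of all genes. Quantile normalization left 9 mitochondrial members lower and 1, Echs1, higher, and 5 peroxisomal members lower, against 22.4% and 24.3% of all genes. With the spike-in level as a covariate 1 mitochondrial member was lower and 2 higher, and 1 peroxisomal member was lower and 1 higher, against 10.5% and 6.99% of all genes. The peroxisomal count of 5 falls also dropped to 3 without control replicate 2 or without krill replicate 5 or 7.

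**Figure D1:**
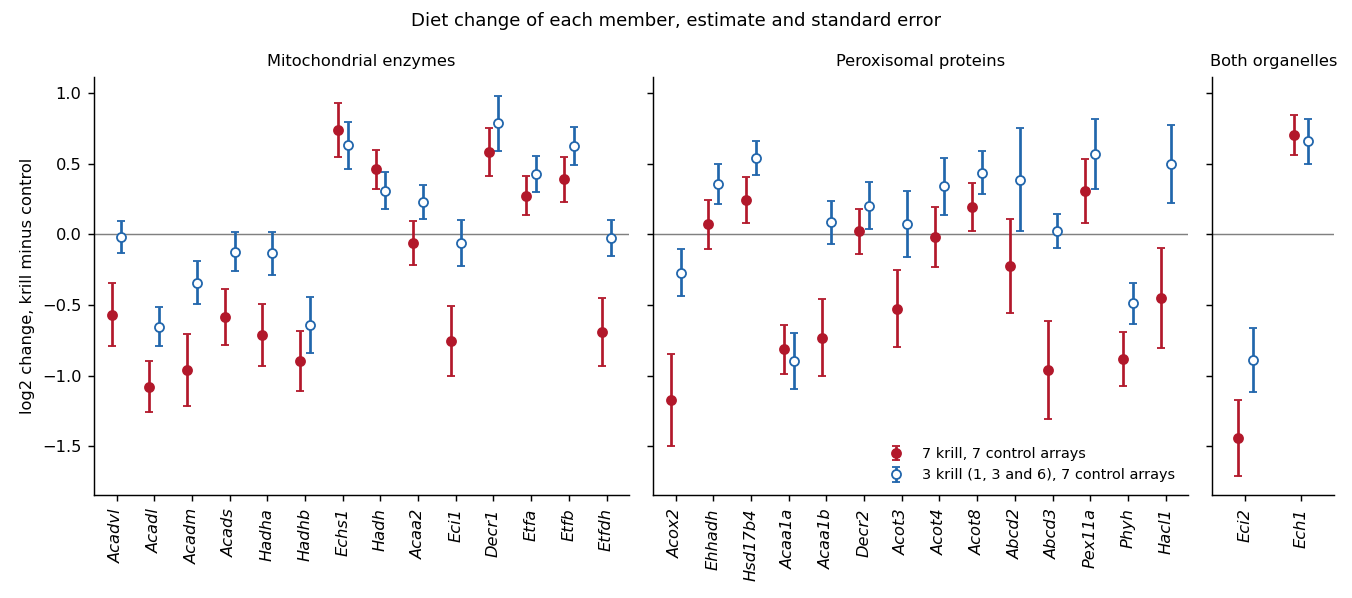
Log2 change of each member, krill minus control, with its moderated standard error, for all 14 arrays (filled) and for 3 krill against 7 control arrays (open). The filled falls of Acadvl, Eci1, Etfdh, Acaa1b and Abcd3 have open counterparts near 0, while Acadl, Hadhb, Acaa1a, Phyh and Eci2 stay below 0. Echs1, Decr1 and Ech1 stay above it, although with spike-in scaling of all 14 arrays these 3 stood below 0.

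All 4 acyl-CoA dehydrogenases were called lower with all arrays, and Acadl alone in the 10-array comparison. Acadl, the long-chain enzyme, had a signal from 11647 to 14997 with a median of 14320 in control livers and from 4545 to 10841 with a median of 5997 in krill livers. The krill values were all under the control values, as in 7.61% of all genes, and krill replicates 1, 3 and 6 were the highest of the krill arrays at 7888 to 10841. The change was -1.08 (SE 0.18, limma adjusted p = 0.000145), or 2.11-fold lower, and -0.65 in the 10-array comparison (SE 0.14, limma adjusted p = 0.00288).

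Acadm, the medium-chain enzyme, ran from 23340 to 30038 with a median of 24730 in control and from 5925 to 27345 with a median of 15883 in krill livers. Here 6 of 7 krill arrays lay below all controls. Acadm fell by 0.96 on the log2 scale (SE 0.25, limma adjusted p = 0.00509), but stood at -0.34 in the 10-array comparison and did not pass (limma adjusted p = 0.104). Acadvl, which acts on very long chains at the inner membrane, was the tightest member in control livers, at 10956 to 12397, and spanned 3733 to 12934 in krill livers. It changed by -0.57 (SE 0.22, limma adjusted p = 0.0427). Krill replicates 1, 3 and 6 lay at 10424 to 12934 and the others at 3733 to 8976, and of the krill arrays only replicate 6 fell inside the control range, with replicate 1 above it. Its 10-array value was -0.02 (limma adjusted p = 0.916), and the call ended on leaving out any control array, or krill replicate 2, 4 or 5 (limma adjusted p from 0.0552 to 0.0894). Acads, the short-chain enzyme, fell by 0.59 (SE 0.20, limma adjusted p = 0.0223) and stood at -0.12 in the 10-array comparison (limma adjusted p = 0.523).

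The subunits of the trifunctional protein fell with the arrays as deposited, while of the enzymes of the same reactions on shorter chains Echs1 and Hadh rose and Acaa2 did not pass. Hadha, the alpha subunit with hydratase and dehydrogenase activity, ran from 6258 to 10059 with a median of 8352 in control and from 2929 to 7675 with a median of 4017 in krill livers. The krill arrays split, with replicates 1, 3 and 6 at 6566 to 7675, inside the control range, and the other 4 at 2929 to 4017, below it. Hadha fell by 0.71 (SE 0.22, limma adjusted p = 0.0121) and stood at -0.13 in the 10-array comparison (limma adjusted p = 0.543). Hadhb, the beta subunit and thiolase, ran from 13788 to 19548 with a median of 16467 in control and from 4721 to 16908 with a median of 8877 in krill livers. Only krill replicate 1 reached the control range. Hadhb fell by 0.89 (SE 0.21, limma adjusted p = 0.00255), and by 0.64 in the 10-array comparison (SE 0.20, limma adjusted p = 0.0223). Across all probe sets limma called 45.4%. Of the other probe sets of Hadhb, the brighter changed by -0.84 (limma adjusted p = 0.0278 over 19246 probe sets) and the dimmer by -0.19 (limma adjusted p = 0.562). The shared promoter window shown above thus stands between a subunit whose fall held without the 4 arrays and a subunit whose fall did not, and the difference between the subunits was not tested.

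Echs1, the short-chain enoyl-CoA hydratase, ran from 9886 to 17052 with a median of 13869 in control and from 15949 to 40958 with a median of 22129 in krill livers. Among the krill arrays 6 of 7 lay above all controls. The change was 0.74 (SE 0.19, limma adjusted p = 0.00445), or 1.67-fold higher, and 0.63 in the 10-array comparison (limma adjusted p = 0.011), but -0.05 with spike-in scaling (limma adjusted p = 0.897). Hadh, the short-chain hydroxyacyl-CoA dehydrogenase, ran from 38583 to 51679 in control and from 51915 to 74339 in krill livers. The krill values were all over the control values, as in 6.52% of all genes. The change was 0.46 (SE 0.14, limma adjusted p = 0.0122), with 0.31 in the 10-array comparison (limma adjusted p = 0.0832), -0.21 after quantile normalization and -0.33 after spike-in scaling. A further bright probe set of Hadh changed by 0.51 (limma adjusted p = 0.00674 over probe sets) and a dim one by 0.14 (limma adjusted p = 0.65). Acaa2, the mitochondrial thiolase for medium and shorter chains, had a change of -0.06 (limma adjusted p = 0.767), with all its 3 probe sets between -0.33 and -0.06 and none passing. Acaa2 was called lower after quantile normalization (-0.47, limma adjusted p = 0.027) and after spike-in scaling (-0.85, limma adjusted p = 0.03).

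Among the auxiliary enzymes for unsaturated chains, the isomerase and the reductase went apart. Eci1, the mitochondrial enoyl-CoA isomerase, ran from 10104 to 15379 with a median of 11838 in control and from 3780 to 13728 with a median of 6423 in krill livers. Krill replicates 1 and 3 lay inside the control range and the other 5 krill arrays below it. Eci1 fell by 0.75 (SE 0.25, limma adjusted p = 0.0192), with -0.06 in the 10-array comparison (limma adjusted p = 0.801). Decr1, the mitochondrial dienoyl-CoA reductase, ran from 13276 to 25294 with a median of 15595 in control and from 19879 to 34798 with a median of 27483 in krill livers. Of the krill arrays 4 lay over the whole control range, among them replicates 1, 3 and 6, and all 7 over the control mean. The change was 0.58 (SE 0.17, limma adjusted p = 0.0108), and 0.78 in the 10-array comparison (limma adjusted p = 0.00703), but -0.21 with spike-in scaling, and quantile normalization ended the call (0.28, limma adjusted p = 0.116). The probe sets of Decr1 disagree, since the dimmer one, at a control signal of 2267 ± 261 (SD, n = 7) and a krill signal of 1434 ± 705 (SD, n = 7), changed by -0.80 (limma adjusted p = 0.0178 over probe sets). It was the only member with probe sets called in both directions.

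The electron transfer chain behind the dehydrogenases did not move as a unit. Etfdh, the membrane oxidoreductase that hands electrons to ubiquinone, ran from 8798 to 11563 in control and from 3144 to 11624 in krill livers. It fell by 0.69 (SE 0.24, limma adjusted p = 0.0246), and stood at -0.03 in the 10-array comparison (limma adjusted p = 0.902). Its call ended without krill replicate 5 (-0.62, limma adjusted p = 0.0546). Etfa and Etfb, the subunits of the soluble flavoprotein, had changes of 0.27 (SE 0.14, limma adjusted p = 0.106) and 0.39 (SE 0.16, limma adjusted p = 0.0531). Both were called higher in the 10-array comparison, at 0.43 (limma adjusted p = 0.0218) and 0.62 (limma adjusted p = 0.00357). With spike-in scaling as well, Etfb passed (0.49, limma adjusted p = 0.048) and Etfa did not (0.29, limma adjusted p = 0.202). As deposited, Etfa was also called without krill replicate 2 alone (0.33, limma adjusted p = 0.0443) and Etfb without krill replicate 7 alone (0.49, limma adjusted p = 0.0076).

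In peroxisomes the enzymes of the main spiral were called lower at its first and last steps and did not pass between them. Acox2, the oxidase of branched chains and bile acid precursors, ran from 5400 to 9018 with a median of 6488 in control and from 988 to 6721 with a median of 3108 in krill livers. Krill replicates 1, 3 and 6 held 4774 to 6721 and the others 988 to 3108, and only replicate 1 reached the control range. Acox2 fell by 1.17 (SE 0.33, limma adjusted p = 0.00724), or 2.25-fold, and stood at -0.27 in the 10-array comparison (limma adjusted p = 0.23). Ehhadh, the L-bifunctional protein, had a change of 0.07 (SE 0.17, limma adjusted p = 0.751), with a control signal of 11196 ± 1647 (SD, n = 7) and a krill signal of 11967 ± 2907 (SD, n = 7). Hsd17b4, the D-bifunctional protein, stood at 0.24 (SE 0.16, limma adjusted p = 0.22), and was called higher in the 10-array comparison at 0.54 (limma adjusted p = 0.00399). With spike-in scaling as well, Hsd17b4 stood at 0.405 and did not pass (limma adjusted p = 0.0922). Its other probe set gave 0.26 with all arrays.

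The peroxisomal thiolases were both called lower. Acaa1b, thiolase B, ran from 40162 to 57348 with a median of 48854 in control and from 15676 to 62114 with a median of 23050 in krill livers. Krill replicates 1, 3 and 6 lay at 39249 to 62114 and the others at 15676 to 23050. Acaa1b fell by 0.73 (SE 0.27, limma adjusted p = 0.034) with all arrays and stood at 0.09 in the 10-array comparison (limma adjusted p = 0.705). Its call also ended without control replicate 2, 3, 4 or 5 or without any of krill replicates 2, 4, 5 and 7 (limma adjusted p from 0.0512 to 0.0797). Acaa1a, thiolase A, ran from 1436 to 2415 with a median of 2089 in control and from 814 to 1512 with a median of 1186 in krill livers. All krill arrays but replicate 7 lay below all controls, and krill replicates 1, 3 and 6, at 814 to 1227, were as low as the others. Acaa1a fell by 0.81 (SE 0.17, limma adjusted p = 0.00109) and by 0.89 in the 10-array comparison (limma adjusted p = 0.00402). Its other probe set had 0.25 (limma adjusted p = 0.289 over probe sets), so the probe sets disagree in sign, and both carry the platform's suffix for probes that may match related transcripts. A further 2 probe sets are listed for both thiolases together and were not used. Decr2, the peroxisomal dienoyl-CoA reductase, had a change of 0.02 (SE 0.16, limma adjusted p = 0.921).

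**Figure D2:**
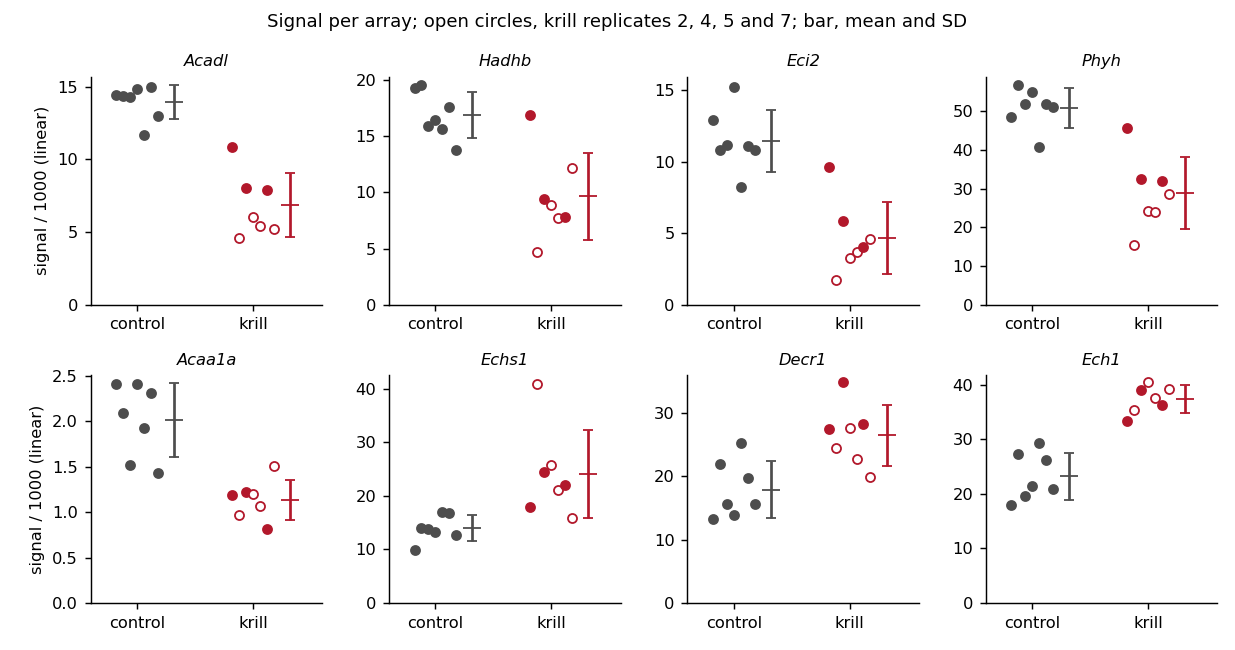
Linear signal of 8 members on each array, on a linear axis, with control arrays in grey and krill arrays in red, the mean and SD beside them, and krill replicates 2, 4, 5 and 7 as open circles. In Acadl and Phyh the open circles are the lowest, while in Acaa1a and Ech1 they mix with the filled ones. Echs1, Decr1 and Ech1 are higher on krill arrays as deposited, a direction that spike-in scaling turned.

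Of the peroxisomal thioesterases, which free carboxylic acids from their CoA esters, none passed with the arrays as deposited. Acot8, of broad range, stood at 0.19 (limma adjusted p = 0.347) and was called higher in the 10-array comparison at 0.43 (SE 0.15, limma adjusted p = 0.0408). With spike-in scaling as well, Acot8 stood at 0.30 and did not pass (limma adjusted p = 0.332). Acot3, for long chains, stood at -0.53 (SE 0.27, limma adjusted p = 0.116), and was called lower without krill replicate 1 (-0.66, limma adjusted p = 0.0394) and with spike-in scaling (-1.31, limma adjusted p = 0.0159). The suffix of its probe set marks probes shared with related transcripts, so neighbouring thioesterases may add to it. Acot4, for succinyl-CoA and dicarboxylic chains, had a change of -0.02 (SE 0.21, limma adjusted p = 0.949).

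Among the membrane proteins Abcd3, the transporter of branched and bile acid precursor CoAs, ran from 26323 to 32655 with a median of 29412 in control and from 3888 to 33771 with a median of 14655 in krill livers. It had the widest spread over the krill arrays of all 30 members, with an SD of 1.09 on the log2 scale, against 0.10 in control livers. Abcd3 fell by 0.96 (SE 0.35, limma adjusted p = 0.0304) and stood at 0.02 in the 10-array comparison (limma adjusted p = 0.916). Leaving out control replicate 2 or krill replicate 5 or 7 ended the call (limma adjusted p from 0.0505 to 0.0618). Abcd2, the transporter of very long and polyunsaturated chains, was the dimmest member chosen, at 176 to 616 in control and 143 to 835 in krill livers, and had a change of -0.22 (SE 0.33, limma adjusted p = 0.591). Pex11a, which promotes division of peroxisomes, had a change of 0.30 (SE 0.23, limma adjusted p = 0.269).

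Alpha-oxidation, which removes a single carbon from phytanic acid before beta-oxidation can begin, was lower at its first step. Phyh, the phytanoyl-CoA hydroxylase, ran from 40725 to 56812 with a median of 51878 in control and from 15410 to 45758 with a median of 28751 in krill livers. Only krill replicate 1 reached the control range. Phyh fell by 0.88 (SE 0.19, limma adjusted p = 0.00126) and by 0.49 in the 10-array comparison (SE 0.14, limma adjusted p = 0.0191). Hacl1, the lyase of the next step, spanned 5610 to 13380 in control and 3268 to 20210 in krill livers and had a change of -0.45 (SE 0.35, limma adjusted p = 0.297).

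The pair known from both organelles moved in opposite directions. Eci2, an enoyl-CoA isomerase, ran from 8254 to 15243 with a median of 11068 in control and from 1691 to 9608 with a median of 4040 in krill livers. Only krill replicate 1 reached the control range. Eci2 fell by 1.44 (SE 0.27, limma adjusted p = 0.000387), or 2.72-fold, and by 0.89 in the 10-array comparison (SE 0.23, limma adjusted p = 0.00858). Ech1, the dienoyl-CoA isomerase, ran from 17968 to 29258 with a median of 21518 in control and from 33273 to 40576 with a median of 37627 in krill livers. The ranges did not overlap, and krill replicates 1, 3 and 6 were not set apart. The change was 0.70 (SE 0.14, limma adjusted p = 0.000717), or 1.63-fold higher, and 0.66 in the 10-array comparison (limma adjusted p = 0.00643), but -0.09 with spike-in scaling (limma adjusted p = 0.78), and quantile normalization ended the call (0.25, limma adjusted p = 0.0894). Of all 30 members, Acadl, Hadh and Ech1 (3 of 30) had ranges that did not overlap between the diets, against 14.1% of all genes.

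**Figure D3:**
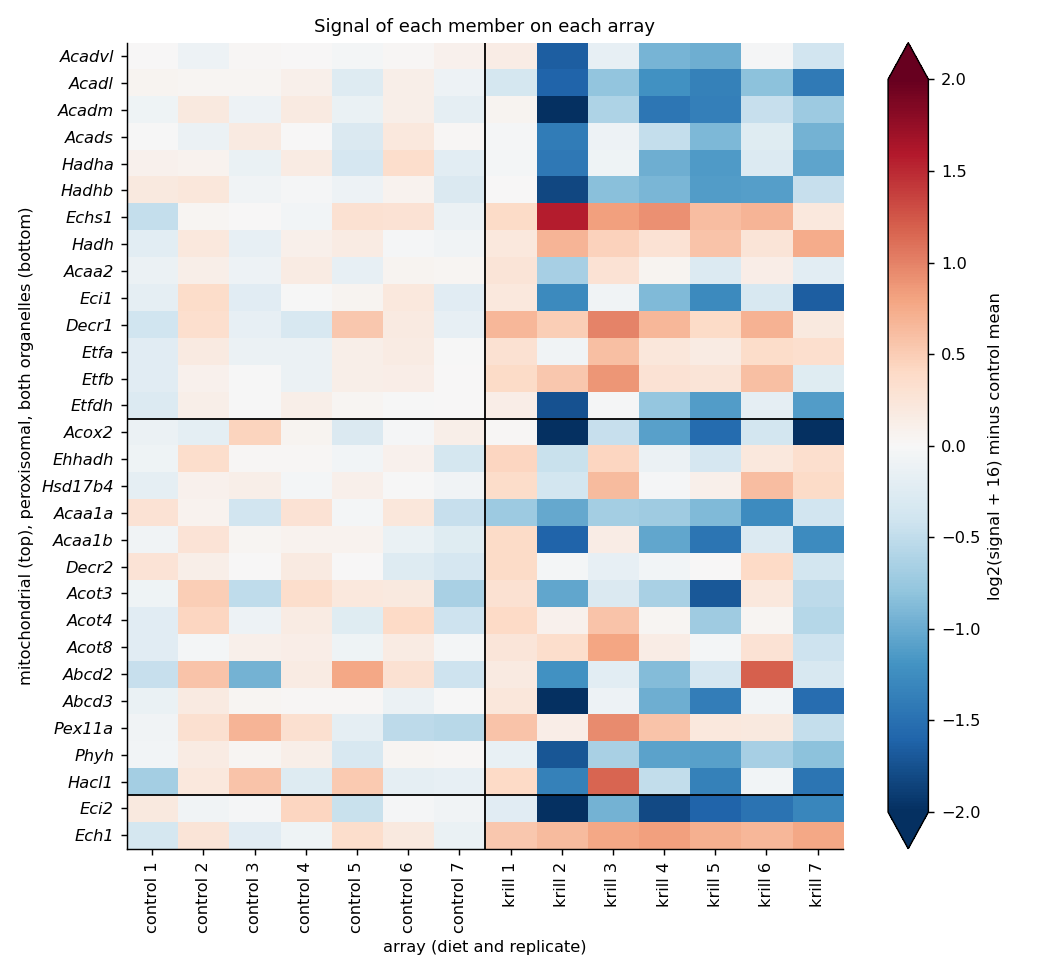
Log2(signal + 16) of each member on each array minus the control mean, with mitochondrial members above, peroxisomal members in the middle and Eci2 and Ech1 below. The columns of krill replicates 2, 4, 5 and 7 are blue for most members, while Echs1, Hadh, Decr1 and Ech1 are red across the krill arrays as deposited. With spike-in scaling these 4 had changes below 0.

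The mitochondrial and peroxisomal groups were lowest on the same arrays. The median of the mitochondrial members, as a difference from their control means, ran from -0.15 to 0.13 on control arrays, from -0.11 to 0.18 on krill replicates 1, 3 and 6 and from -1.34 to -0.42 on krill replicates 2, 4, 5 and 7. For the peroxisomal members these ranges were -0.29 to 0.19, 0.02 to 0.34 and -1.03 to -0.50. The difference of the medians within an array, which does not depend on the scaling of that array, ran from -0.12 to 0.20 on control and from -0.31 to 0.08 on krill arrays, so that the diets overlapped. The difference between the median changes, mitochondrial minus peroxisomal, was -0.24 with all arrays. It has no test, since members are not replicates.

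**Figure D4:**
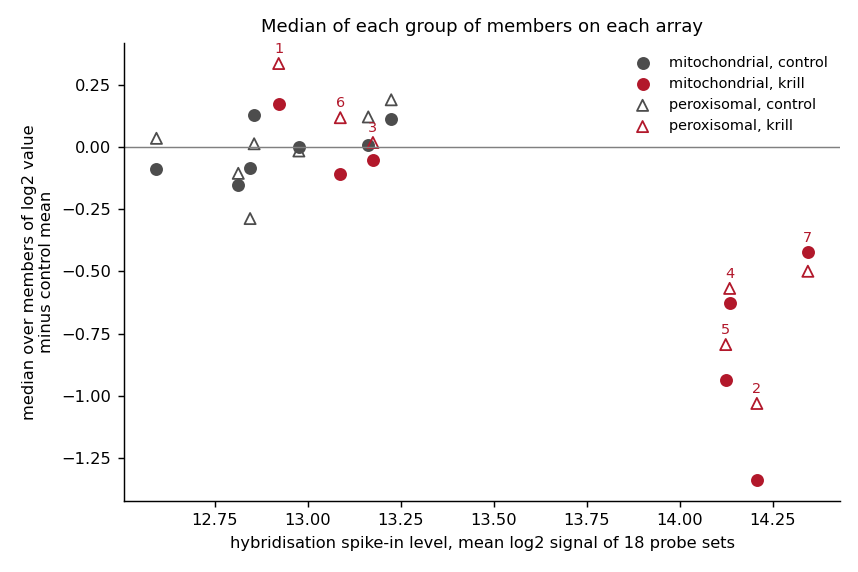
Median over the mitochondrial members (circles) and the peroxisomal members (triangles) of the log2 value minus its control mean, for each array, against the spike-in level of that array. Krill replicates 2, 4, 5 and 7, numbered, lie to the right at 14.12 to 14.34 with medians of -0.42 or lower, and krill replicates 1, 3 and 6 lie near the control arrays.

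Ratios of enzymes of like steps on the same array cancel its scaling, but not an unequal effect of RNA shortening on the probe sets. The combined 3' to 5' ratio was higher on all 7 krill arrays than on any control array, and its part here was not tested. The enzyme ratios, 9 in all, were formed after the values had been seen. They share members, Hadha above all, and are not independent. They were tested by exact permutation, two-sided, with p-values adjusted over the 9. The adjustment does not account for the choice of the pairs with the values known. Hadha and Hadhb were already called lower and Decr1 higher, while Ehhadh, Hsd17b4, Acaa2 and Decr2 were not called. The p-values of ratios between these are therefore no independent support. Hadha relative to its peroxisomal counterpart Ehhadh fell by 0.78 on the log2 scale (SE 0.15, adjusted p = 0.00175, exact permutation). On all 7 krill arrays, at -1.39 to -0.47, this ratio lay below all control arrays, at -0.28 to 0.26. No other ratio of the 9 had ranges without overlap. Among single genes 14.1% had such ranges, and the share among ratios of other genes was not worked out. In the 10-array comparison Hadha relative to Ehhadh stood at -0.49 (exact permutation adjusted p = 0.0375, with a smallest possible raw p of 0.0167 over 120 assignments). Hadha relative to Hsd17b4 changed by -0.96 (SE 0.17, exact permutation adjusted p = 0.00175), and by -0.67 in the 10-array comparison (exact permutation adjusted p = 0.0375). Relative to Acaa1b, its counterpart among the peroxisomal thiolases, Hadhb had a change of -0.16 (SE 0.25, exact permutation adjusted p = 0.522), but of -0.73 in the 10-array comparison (exact permutation adjusted p = 0.0375). Decr1 relative to Decr2 rose by 0.56 (SE 0.21, exact permutation adjusted p = 0.0197), with 0.58 in the 10-array comparison, where it did not pass (exact permutation adjusted p = 0.167).

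Within mitochondria the subunits of the trifunctional protein fell relative to 3 enzymes of shorter chains. No ratio of acyl-CoA dehydrogenases was formed, and their changes did not follow chain length, at -0.57 for Acadvl, -1.08 for Acadl, -0.96 for Acadm and -0.59 for Acads. Hadha changed by -1.46 (SE 0.35) relative to Echs1 and by -1.17 (SE 0.30) relative to Hadh, and Hadhb by -0.83 (SE 0.18) relative to Acaa2. Eci1 changed by -1.34 (SE 0.22) relative to Decr1, and Eci2 by -2.15 (SE 0.35) relative to Ech1. The exact permutation adjusted p was 0.003 for Hadhb over Acaa2 and 0.00175 for the other 4. Each of those 4 set a member called lower with all arrays over a member called higher. A fall was thus fixed by the choice, and the p-value is no further support. In the 10-array comparison these 5 ratios stood at -0.76, -0.44, -0.87, -0.85 and -1.55, each with an adjusted p = 0.0375 (exact permutation). The ratios show unequal change of the signals, not which of the enzymes changed, and the part of RNA quality in them was not tested. For Decr1 they rest on the brighter of its disagreeing probe sets.

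**Figure D5:**
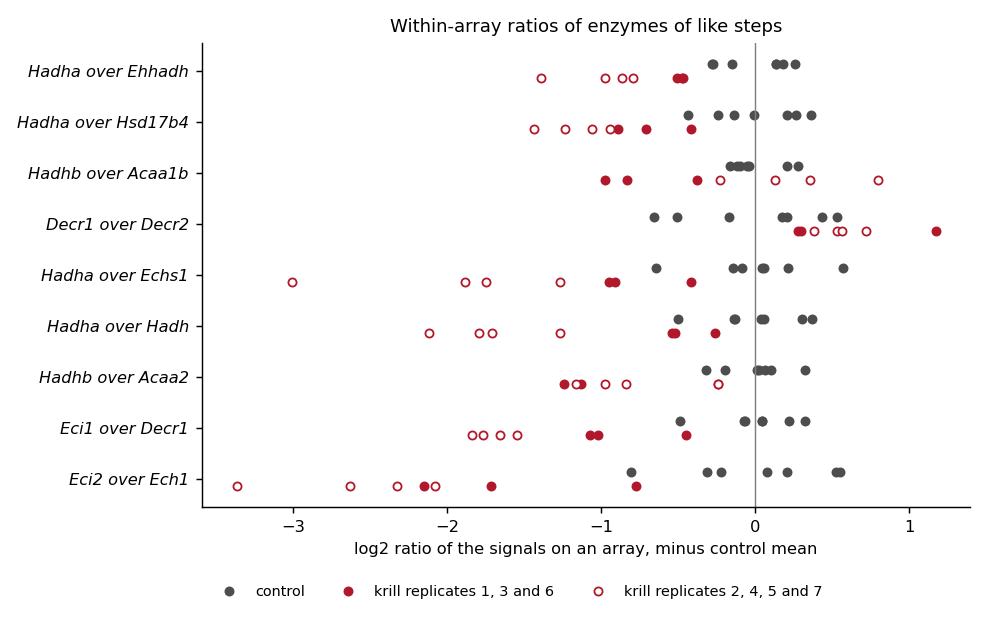
Log2 ratio of the signals of the first over the second named gene on each array, minus the control mean, with control arrays in grey and krill arrays in red, krill replicates 2, 4, 5 and 7 open. Of the 9 ratios, chosen with the values known, only Hadha over Ehhadh separates the diets, at -1.39 to -0.47 against -0.28 to 0.26. Hadhb over Acaa1b spreads from -0.98 to 0.80 on the krill arrays.

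The members varied more between krill than between control livers. The median SD on the log2 scale was 0.16 in control and 0.48 in krill livers over the mitochondrial members, and 0.23 and 0.48 over the peroxisomal members. The SD was larger in krill livers for 26 of the 30 members (86.7%), close to the 87.3% of all genes for which this held. The members with a smaller SD in krill livers were Decr1, Acaa1a, Pex11a and Ech1, the last at 0.27 in control and 0.10 in krill livers.

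Other genes of the organelles, from lists written with earlier results known, were called in both directions. Of 30 further mitochondrial genes of acyl-CoA and propionate metabolism and carnitine transport that were tested, of 32 written, 7 rose and 13 fell, with a median of -0.42, where 22.9% of all genes rose and 24.8% fell. In the 10-array comparison 8 rose and 8 fell, against 12.7% and 19.6% of all genes. Those with the smallest p among the falls were Cpt1a, the carnitine palmitoyltransferase of the outer membrane, at -1.86, Mmab, a cobalamin adenosyltransferase, at -2.51, and Pcca, a propionyl-CoA carboxylase subunit, at -1.11. Mmab was dim, with a signal of 381 ± 101 on control and 79.9 ± 84.1 on krill arrays (SD, n = 7 each). Mcee, the methylmalonyl-CoA epimerase, Hibadh and Hibch, of valine breakdown, changed by 1.03, 0.92 and 0.58. The limma adjusted p of these 6 lay between 0.00021 and 0.00292, and Hibch turned to -0.20 with spike-in scaling, under which 0 of the 30 rose.

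Of 42 further peroxisomal genes tested, of 50 written, 8 rose and 15 fell, with a median of -0.24, against the same 22.9% and 24.8% of all genes. In the 10-array comparison 7 rose and 6 fell, against 12.7% and 19.6%. Crat, the carnitine acetyltransferase, changed by -1.61, Pex6, an ATPase that recycles the import receptor, by -1.40, and Tysnd1, a protease that processes several beta-oxidation enzymes, by -1.93. Without krill replicates 2, 4, 5 and 7 they stood at -1.28, -1.41 and -1.13 and still passed (limma adjusted p from 0.00077 to 0.00936). Mpv17l, a peroxisomal membrane protein, Baat, which conjugates bile acids, and Agxt, the alanine-glyoxylate aminotransferase, rose by 0.77, 0.64 and 0.49, the last pair turning to -0.15 and -0.30 with spike-in scaling. Catalase, Cat, which removes the hydrogen peroxide of the peroxisomal oxidases, had a change of 0.23 (SE 0.15, limma adjusted p = 0.205). After quantile normalization Cat stood at -0.43 and after spike-in scaling at -0.56, and it was called lower in both (limma adjusted p = 0.00686 and 0.0259). Ppara, which encodes PPAR alpha, changed by -1.93 (SE 0.28, limma adjusted p = 5.47e-05) and by -1.18 in the 10-array comparison.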

How the data were processed

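The deposited table holds linear signal intensity per probe set for 14 arrays, made by the authors with MAS5, per the submitters' processing notes; the MAS5 version was not given in the sources used here. Each array had the same mean once the lowest and highest 2 percent were trimmed. Intensity became log2(signal + 16), which understates folds of dim genes. Of the probe sets that are not controls, the 50% with the higher mean log2 value were kept; the brightest of each gene stood for it, leaving 11308 genes. The diets were compared by limma 3.58.1 under R 4.3.3 (lmFit, then eBayes with a trend), with Benjamini-Hochberg adjustment over all genes and a threshold of 0.05; the same was done in a fit of 19246 probe sets. Ratios and array quality were tested by exact permutation in Python 3.11.15 with scipy 1.17.1. The fit was tested on simulated data. Alternatives were other pseudocounts, filters, scalings, probe sets, covariates, a replicate block and left-out arrays. The number of arrays limits the precision; each array is a separate mouse.

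The members, the gene lists and the alternatives were chosen with earlier results of these data known. All members are named; of other genes, up to 3 per list and direction with the smallest p, and Ppara and Cat. Promoter windows are RefSeq's (GRCm38.p6), and none was used here for Decr1, Abcd2, Hsd17b4 and Acaa2. Hsd17b4 and Acaa2 lie on chromosome 18, whose windows were left out for the members but not for the shares over all windows.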

Additional observations from a re-analysis of the deposited data

Results flagged for a closer look

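Etfdh in control replicate 1 had a signal of 8798, below the 10541 to 11563 of the other 6 control arrays, a gap of 0.661 of the group's range. It was the only sample to stand apart by Dixon's test among 60 groups of 7 arrays, in which chance alone flags about 1 in 20.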

How the results depend on the processing

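All 30 members kept their side of the threshold with a pseudocount of 1 or 64 and with the replicate number as a block. The block left 5253 genes called, with 8 and 3 mitochondrial and 5 and 0 peroxisomal members lower and higher; the numbers do not pair the mice, since same-numbered arrays deviated together with correlations of -0.02 to 0.098 and 1 of 7 correlated best with its own number. Leaving out each array in turn gave 4680 to 6147 genes called, 6 to 8 mitochondrial members lower and 3 to 4 higher, 3 to 6 peroxisomal members lower and 0 higher, and a difference of medians of -0.377 to -0.16, and 23 members kept their side in all 14 such fits.

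Without krill replicates 2, 4, 5 and 7, 2 mitochondrial members were lower and 2 peroxisomal members lower and 2 higher, and Acaa1b and Abcd3 turned to 0.086 and 0.021. With those arrays left out and spike-in scaling together, chosen after seeing the data, 2807 genes were called, with 2 mitochondrial members lower and 2 higher and 2 peroxisomal members lower and 0 higher. Quantile normalization left 1 mitochondrial member higher and turned Hadh to -0.21 and Cat to -0.43. Centring on the array median left 0 higher, and so did spike-in scaling, under which Echs1, Hadh, Decr1, Ech1, Hibch, Baat, Agxt and Cat stood at -0.048, -0.33, -0.21, -0.086, -0.20, -0.15, -0.30 and -0.56. The mean of its probe sets put Decr1 at -0.11; other probe sets put Decr1 at -0.80 and Acaa1a at 0.25.

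Adding the spike-in level as a covariate, 1978 genes were called, 1 mitochondrial member lower, and 1 peroxisomal member lower and 1 higher; Acadvl, Acaa1b and Abcd3 turned to 0.01, 0.10 and 0.077. Adding the 3'/5' index as a covariate, limma called 0 genes, against 1873 genes and 9 members at an unadjusted p under 0.05, so 0 members were called lower or higher in either group. The difference of medians was -0.08 there, and Acads, Hadha, Eci1, Etfdh, Acox2, Acaa1b and Abcd3 turned to 0.27, 0.15, 0.40, 0.34, 0.23, 0.42 and 0.37; 78.5% of the variance of that index lay between the diets. Counting Eci2 and Ech1 with the peroxisomal members gave 1 higher. Causes were not tested. Sign changes of values that passed in neither fit were not counted. Signal over background was not available, so what is limited by dim signal could not be told.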

Other observations

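The dim transporter Abcd2 had 2 probe sets past the signal filter. The one that was not used, with a control signal of 377 ± 150 (SD, n = 7) and a krill signal of 199 ± 134 (SD, n = 7), changed by -1.08 (SE 0.43, limma adjusted p = 0.0477 over probe sets). Of the 47 probe sets of the members 5 lay below the filter and were not tested. One of these, of Acadl, read 27.1 ± 19.9 on control arrays (SD, n = 7) and 91.3 ± 57.4 on krill arrays (SD, n = 7), the opposite direction to the bright probe set of that gene. The smaller probe set of Acot4 and the second of Pex11a stood at -0.07 and 0.25, close to the -0.02 and 0.30 of the probe sets used, and none of the 4 passed.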
